A study of Homo sapiens with 4 samples.

Results

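The ATF4 and amino acid stress genes were examined in ovarian cancer stem cells (OCSCs) treated with the ERβ agonist LY500307. They were chosen by gene symbol from what they are known to do, as kinases, transcription factors and targets of the integrated stress response. The list held 37 symbols. Of these, 36 were found among the 23228 gene symbols of the count files, and VLDLR-AS1, a non-coding RNA, was not matched by its symbol. A filter on low counts kept 35 of the 36 genes for testing, out of 14473 genes tested in all. The gene left out was PYCR1, with no read in either vehicle sample and 1 read in each LY500307 sample.

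The OCSCs came from SKOV3, an established human ovarian cancer cell line. Cells with high aldehyde dehydrogenase activity (ALDH+) were sorted and grown as spheroids in serum-free medium with growth factors, hydrocortisone and insulin, and all samples shared this sort and this medium. The 2 vehicle samples and the 2 LY500307 samples (5 µM) were collected after 24 h. The labels name a total RNA kit and the study's methods name mRNA libraries, so the kind of RNA selected is uncertain. The sources used here do not say whether the 2 samples of a group were separate cultures, so the p-values measure the spread between these samples, which may be technical.

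The integrated stress response is a signalling route shared by several stresses. The kinases encoded by EIF2AK1 (HRI, heme and mitochondrial stress), EIF2AK2 (PKR, double-stranded RNA), EIF2AK3 (PERK, endoplasmic reticulum stress) and EIF2AK4 (GCN2, amino acid shortage) phosphorylate the translation factor eIF2, which lowers general protein synthesis and raises translation of the ATF4 mRNA. ATF4 then pairs with C/EBP proteins on composite elements and raises transcription of genes for amino acid synthesis, amino acid uptake, folate metabolism and, under long stress, cell death. RNA counts report the transcripts of these genes, and neither ATF4 protein nor eIF2 phosphorylation was measured.

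With LY500307, none of the 35 genes tested met the study's criteria for a differentially expressed gene (DEG), which ask for a log2 fold change beyond 0.5 in size together with an unadjusted p below 0.05. Over all genes tested, these criteria called 4.62%, with 2.76% higher and 1.86% lower in LY500307. An unadjusted p below 0.05 alone was reached by 2 of the 35 genes, CEBPB (higher) and ALDH1L2 (lower), against 11.6% of all genes tested (6.09% higher and 5.5% lower). Neither kept it with the GC correction (p of 0.134 and 0.0785 in the edgeR test) or the length correction (0.0695 and 0.0711), and DESeq2 gave such a p to CEBPB (0.0434) and TRIB3 (0.0344) but not to ALDH1L2 (0.0563). Other edgeR fits with all samples gave such a p to further genes. Among them were CBS (0.0479, GC correction), PPP1R15A (0.0154, replicate block and GC correction) and SLC1A5 (0.0459, library totals alone). With the filter of at least 1 count, TRIB3 (0.0268) and SLC3A2 (0.0408) also had one. None of these met the DEG criteria. No gene of the whole table had an adjusted p below 0.05 with edgeR's quasi-likelihood test. In the listed genes the adjusted p ran from 0.428 to 0.978. Their log2 fold changes ran from -0.33 (ALDH1L2) to 0.45 (NUPR1), with a median of 0.06, beside a median of 0.00 for all genes tested. For 21 of the 35 genes (60% of them) the 95% interval of the log2 fold change lay within -0.5 to 0.5, as it did for 43.1% of all genes tested. The other 14 genes had intervals that reached 0.5 in at least 1 direction, so a change of that size was not excluded for them. For CEBPB and ALDH1L2, which are among these 14, the interval also left out 0. Since counts are shares of a library, fewer cells of a kind and less RNA per cell cannot be told apart.

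The libraries held from 28841701 to 34943882 reads counted on genes. LY500307 replicate 2 lay furthest from the vehicle samples, and replicate 1 lay on the same side of them. The share of reads outside genes was 19.88% and 20.52% of all tallied reads with vehicle and 18.96% and 17.29% with LY500307. The share of reads on 83 ribosomal protein genes was 1.88% and 1.9% with vehicle and 2.03% and 2.23% with LY500307. These library measures and the treatment cannot be told apart in this design. Gene counts of the LY500307 samples differed by a chi-square of 44.96 per degree of freedom and those of the vehicle samples by 5.23, so neither pair was a copied library. The epithelial marker EPCAM had 6213 to 8327 reads, KRT18 had 668 to 1030 and ERBB2 had 1452 to 2060. By contrast, KRT8 had only 9 to 33 reads, KRT19 had 0 to 2 and PAX8 had 0 in all samples. Whether these levels are usual for SKOV3 was not tested. Summed CPM (read counts per 1e+06 reads of the TMM-adjusted library size) of 3 lymphoid markers stayed between 0.13 and 0.2, and that of 3 endothelial markers between 0.03 and 0.37. Those of 3 myeloid markers, mostly CD68, ran from 12.03 to 18.33. Those of 3 fibroblast markers, mostly the collagen gene COL1A1, were 193.31 and 201.02 with vehicle and 232.12 and 240.46 with LY500307, and the part of these markers in the results was not tested. The ALDH enzyme genes ALDH1A1, ALDH1A2 and ALDH1A3 summed to 15.59 to 17.07 CPM.

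ATF4 binds a composite C/EBP and ATF element, and promoter windows of several listed genes carry its core. RefSeq promoter windows (GRCh38.p14, from 250 bases before to 50 after a gene's start) were matched by symbol for 28 of the 37 genes. They were searched on both strands for TTGCATCA and for the looser TGATGNAA, which contains the reverse complement of TTGCATCA and so counts its matches too. TTGCATCA was found for 5 of these 28 genes (17.9%), MTHFD1L, JDP2, CHAC1, CEBPG and SLC1A5, whereas 1.08% of all 27305 genes with a window held it. TGATGNAA was found for 8 of the 28 (28.6%), the same 5 with ASNS, SLC3A2 and SLC7A1, beside 4.46% of all genes and 3.62% of all windows. The stretches that follow show the element upstream of the start in 5 genes of different roles, so that their shared letters can be set beside their separate values. Each reads 5′ to 3′ on the gene's own strand, ends no later than the start, and has the match in capitals. A start here is that of a window. A gene could have more than 1 window, and whether a window's start is the gene's main start or an alternative one was not tested.

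The match lies 68 bases before the start of ASNS (GRCh38.p14 chr7:97872429-97872516, minus strand), 209 bases before that of CHAC1 (chr15:40953222-40953309, plus strand), 42 bases before that of CEBPG (chr19:33374031-33374112, plus strand), 16 bases before that of JDP2 (chr14:75427966-75428021, plus strand) and 97 bases before that of SLC1A5 (chr19:46784864-46784951, minus strand).
ASNS: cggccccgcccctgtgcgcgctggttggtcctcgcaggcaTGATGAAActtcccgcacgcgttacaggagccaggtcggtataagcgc
CHAC1: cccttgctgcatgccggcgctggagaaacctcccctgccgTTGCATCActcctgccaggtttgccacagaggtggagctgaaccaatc
CEBPG: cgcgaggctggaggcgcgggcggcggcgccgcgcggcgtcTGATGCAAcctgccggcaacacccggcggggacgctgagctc
JDP2: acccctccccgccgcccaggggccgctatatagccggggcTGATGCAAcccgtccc
SLC1A5: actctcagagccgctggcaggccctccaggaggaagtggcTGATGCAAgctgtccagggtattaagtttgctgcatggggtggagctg

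A match is a description of these letters and not a measured binding site. The 8 genes with the element did not share a direction: log2 fold changes were 0.42 for CHAC1, 0.39 for SLC3A2, 0.37 for JDP2, 0.22 for SLC1A5, 0.11 for ASNS, 0.01 for SLC7A1, -0.05 for CEBPG and -0.20 for MTHFD1L. None of these genes met the DEG criteria, which called 4.62% of all genes tested.

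Levels per kilobase of exon, taken as TMM-scaled CPM over the length of the canonical transcript in a GRCh37 annotation, differed widely among the genes. In vehicle samples SLC38A2, a sodium-coupled transporter of small neutral amino acids, stood highest at 128 ± 0.576 CPM per kilobase (SD, n = 2). CBS, the first enzyme of transsulfuration, followed at 101 ± 3.04 and ATF4 itself at 101 ± 0.788 CPM per kilobase (SD, n = 2), 2 levels that did not differ beyond their spread. Next came the serine synthesis genes PHGDH at 85.3 ± 2.91 and PSAT1 at 78.7 ± 2.73, and then EIF4EBP1, which encodes a repressor of translation initiation, at 74.1 ± 11.4 CPM per kilobase (SD, n = 2). PSAT1 and EIF4EBP1 did not differ beyond their spread. At the low end were NUPR1 at 0.146 ± 0.0192, JDP2 at 0.278 ± 0.0690, the cystine transporter gene SLC7A11 at 1.12 ± 0.0884 and CHAC1 at 1.72 ± 0.224 CPM per kilobase (SD, n = 2). PYCR1, an enzyme of proline synthesis, had no read in either vehicle sample, where 3 reads would be 0.1 and 0.106 CPM, the level that a count of 0 still allows. In the annotation, PYCR1 shares 14.1% of its exonic bases with MYADML2 on the same strand and 15.6% with a gene on the other strand. Whether the counting or the cells account for the empty row was not tested.

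**Figure D1:**
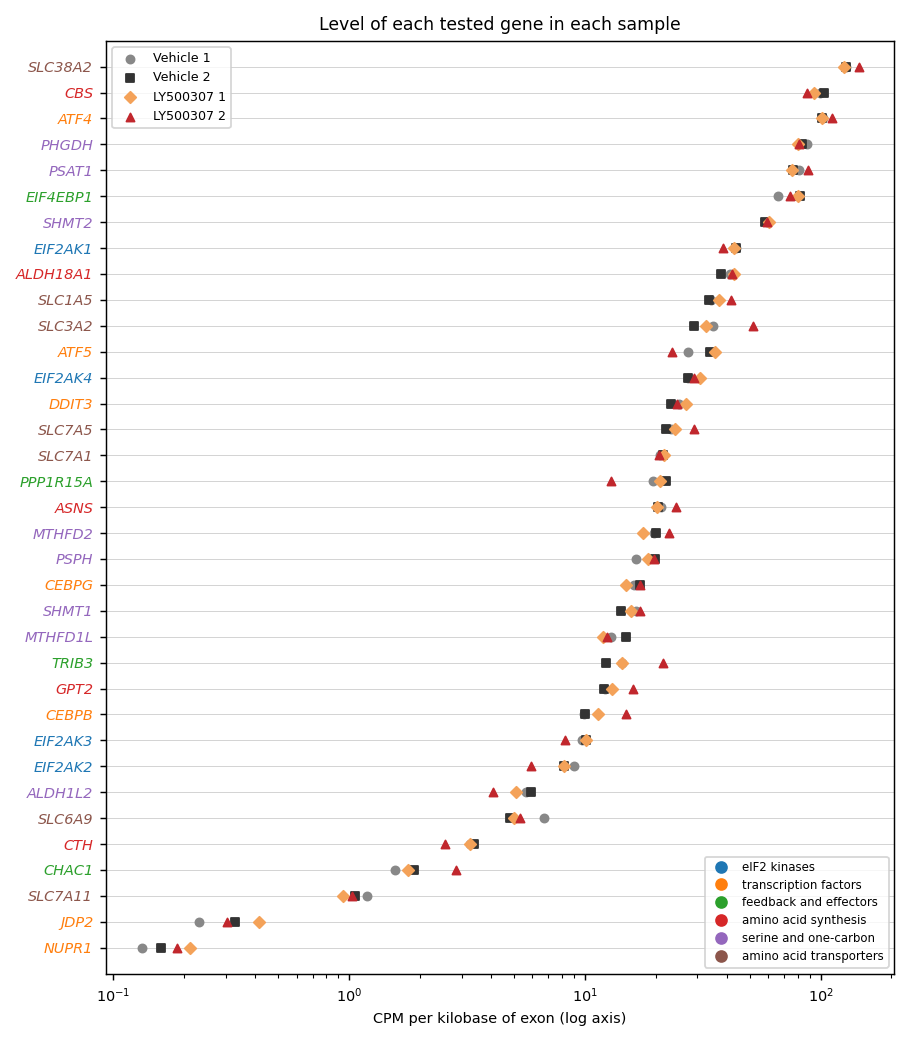
Level of each tested gene in each of the 4 samples, as CPM per kilobase of exon on a log axis, with genes ordered by their vehicle mean and names coloured by role. Levels span from 0.146 CPM per kilobase for NUPR1 to 128 for SLC38A2, and for most genes the 4 points lie close together beside this span.

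Among the kinase genes, EIF2AK1 and EIF2AK4 had the most reads and EIF2AK2 had the widest difference between groups. EIF2AK2 was at 89.4 and 81.5 CPM in the vehicle samples and at 81.4 and 59.2 CPM in the LY500307 samples. Its first LY500307 value was level with the lower vehicle value and its second was well below, so that the log2 fold change was -0.28 (SE 0.15, interval -0.64 to 0.08), with an unadjusted p of 0.108 and an adjusted p of 0.472 in the edgeR test. Against both vehicle samples, LY500307 replicate 2 alone gave EIF2AK2 a log2 fold change of -0.52 and replicate 1 alone gave -0.07. EIF2AK1 was at 194 and 193 CPM with vehicle and 190 and 169 CPM with LY500307, a log2 fold change of -0.11. EIF2AK3 was at 44.3 and 45.7 CPM and then at 45.8 and 37.2 CPM, and its groups overlapped. EIF2AK4 was the only kinase gene with both LY500307 values on the high side, at 170 and 161 CPM against 151 and 151 CPM with vehicle, a log2 fold change of 0.13 (SE 0.10, interval -0.09 to 0.35). The 4 kinase genes together summed to 478.7 and 471.4 CPM with vehicle and to 487.4 and 426.8 CPM with LY500307, which overlapped.

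ATF4 (GRCh37 chr22:39915700-39918688) was at 145 and 143 CPM in the vehicle samples and at 143 and 160 CPM in the LY500307 samples. The first LY500307 value fell among the vehicle values and only the second lay above them. The log2 fold change was 0.07 (SE 0.10, interval -0.16 to 0.31), so that a change in ATF4 mRNA above 0.31 in log2 lies outside the interval. This direction was not held by the scaling: a correction for exonic GC content gave -0.01 and one for gene length gave -0.02. DDIT3, which encodes the stress-induced factor CHOP, was at 22.6 and 20.8 CPM and then at 24.4 and 22.2 CPM, with overlapping groups and a log2 fold change of 0.10 (-0.04 with the correction for gene length). In the annotation, 31.6% of the exonic bases of DDIT3 overlap genes on the other strand, and how strand was treated in the counting is not given in the sources used here. ATF5, a relative of ATF4 under similar translational control, went apart in the 2 treated samples, at 71.7 and 47.2 CPM, one above and the other below the vehicle values of 54.8 and 68.4 CPM.

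CEBPB, whose product dimerizes with ATF4, had the smallest p of the list. It lies on GRCh37 chr20:48807367-48809205 and was at 18.2 and 18.5 CPM with vehicle and at 20.9 and 27.6 CPM with LY500307. Both treated samples were above both vehicle samples, and the second was far above the first. The log2 fold change was 0.40 (SE 0.16, interval 0.02 to 0.78), with an unadjusted p of 0.0412 and an adjusted p of 0.428 in the edgeR test, which does not pass over all genes. It was 0.19 from LY500307 replicate 1 alone and 0.59 from replicate 2 alone. CEBPG, another ATF4 partner, was at 60.1 and 63.9 CPM and then at 56.0 and 63.6 CPM, and its groups overlapped. The factors JDP2 and NUPR1 were low in every sample. JDP2 had 37 and 50 reads with vehicle and 77 and 53 with LY500307, and its groups overlapped in CPM. NUPR1 had 21 and 24 reads and then 39 and 32. NUPR1 was higher in both treated samples, but its log2 fold change of 0.45 had an interval from -0.52 to 1.42, too wide to tell a rise from a fall at this depth.

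None of the 4 feedback and effector genes met the DEG criteria, which called 4.62% of all genes tested. TRIB3 encodes a pseudokinase that is induced by ATF4 and CHOP and restrains them. It lies on GRCh37 chr20:343479-378203 and was at 33.9 and 29.0 CPM with vehicle and at 34.0 and 50.6 CPM with LY500307. The first treated value was next to the higher vehicle value and the second stood apart, and the log2 fold change was 0.43 (SE 0.19, interval -0.02 to 0.87; unadjusted p of 0.0581 from edgeR), or 0.11 from LY500307 replicate 1 alone and 0.69 from replicate 2 alone. CHAC1, which encodes a glutathione-degrading enzyme, had 71 and 81 reads and then 94 and 139 reads. In CPM, which takes out library size, it was at 2.37 and 2.85 and then at 2.71 and 4.30, so the groups overlapped. Its log2 fold change was 0.42 with an interval from -0.28 to 1.13, and it was 0.05 from LY500307 replicate 1 alone and 0.73 from replicate 2 alone. PPP1R15A encodes the phosphatase subunit that reverses eIF2 phosphorylation, and its values were 45.5 and 51.8 CPM with vehicle and 49.0 and 30.4 CPM with LY500307. Here the second treated sample was the lowest of all 4 while the first lay among the vehicle values, and the log2 fold change was -0.29 (SE 0.21), or 0.01 from replicate 1 alone. EIF4EBP1 was at 54.6 and 67.9 CPM and then at 66.2 and 61.6 CPM, with the treated values inside the vehicle range.

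**Figure D2:**
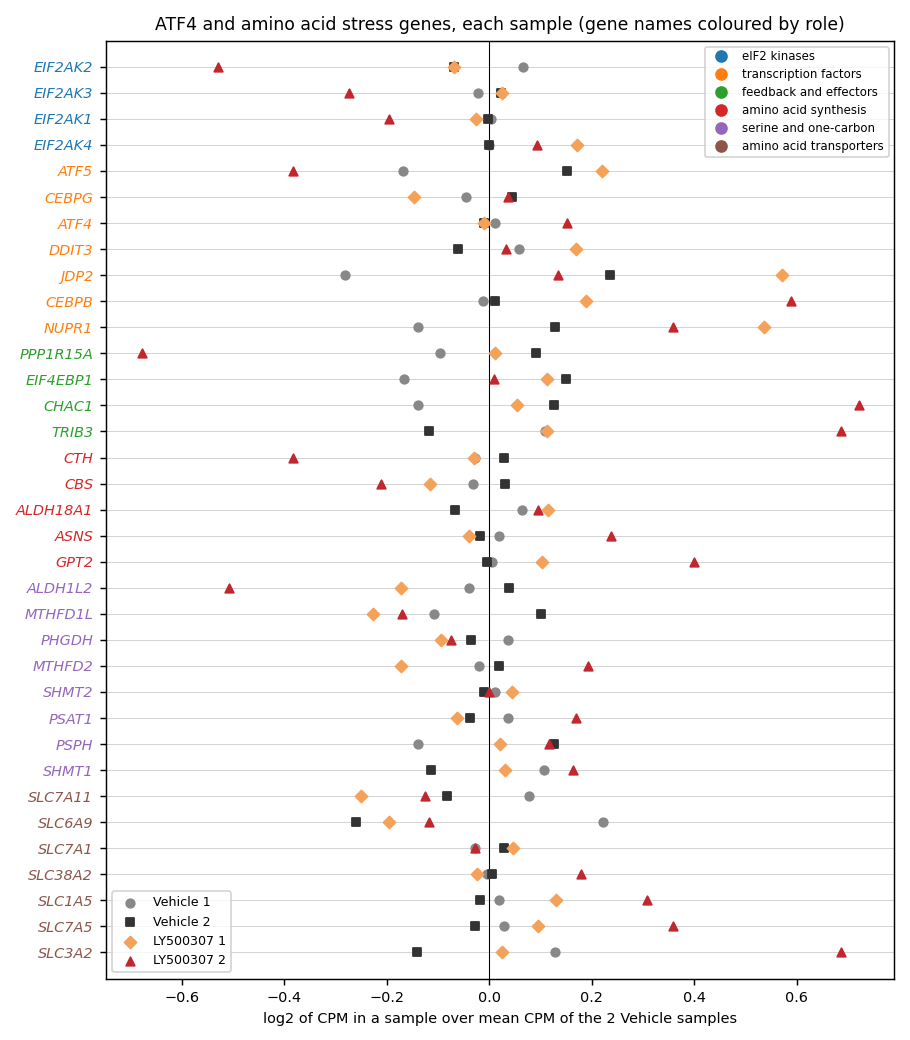
Each sample's CPM over the mean CPM of the 2 vehicle samples, as log2, for the 35 genes tested, ordered by role. LY500307 replicate 2 (triangles) is the outermost point for CEBPB, TRIB3, CHAC1, SLC3A2, PPP1R15A, EIF2AK2 and ALDH1L2, with ratios of 0.59, 0.69, 0.72, 0.69, -0.68, -0.53 and -0.51.

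None of the 5 amino acid synthesis genes tested met the DEG criteria, which called 4.62% of all genes tested. For 3 of the 5 the interval lay within -0.5 to 0.5, as it did for 43.1% of all genes tested. ASNS, the asparagine synthetase gene and a textbook ATF4 target, was at 50.1 and 48.8 CPM with vehicle and at 48.1 and 58.3 CPM with LY500307. One treated value was just below and the other above the vehicle values, and the log2 fold change was 0.11 (SE 0.13, interval -0.19 to 0.40). In the annotation, 49.3% of the exonic bases of ASNS overlap another gene on the same strand, ENSG00000284707, and its part in these counts was not tested. GPT2, a mitochondrial alanine transaminase gene, was at 48.6 and 48.3 CPM and then at 52.0 and 63.9 CPM, both above, with a log2 fold change of 0.26 (SE 0.13) and an unadjusted p of 0.0797 in the edgeR test. ALDH18A1, which starts proline synthesis from glutamate, was at 139 and 127 CPM and then at 144 and 142 CPM, a log2 fold change of 0.10. The transsulfuration genes CBS and CTH had negative fold changes. CBS was at 247 and 258 CPM with vehicle and at 233 and 218 CPM with LY500307, a log2 fold change of -0.16 (SE 0.10, interval -0.40 to 0.07). CTH, the next enzyme of that route, had 205 and 202 reads and then 237 and 173, which in CPM was 6.84 and 7.11 against 6.83 and 5.35, a log2 fold change of -0.19.

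In 7 of the 8 serine and folate genes the interval lay within -0.5 to 0.5, as it did for 43.1% of all genes tested. The median SE was 0.12 for these 8 genes, beside 0.15 for all genes tested. Only ALDH1L2, which encodes a mitochondrial enzyme that oxidizes 10-formyltetrahydrofolate, had an interval that went past this range. ALDH1L2 (GRCh37 chr12:105413562-105501421) was at 41.8 and 44.1 CPM with vehicle and at 38.1 and 30.2 CPM with LY500307, so both treated samples were below both vehicle samples. The log2 fold change was -0.33 (SE 0.14), with an unadjusted p of 0.0479 and an adjusted p of 0.428 in the edgeR test. From LY500307 replicate 1 alone it was -0.18 and from replicate 2 alone -0.50. MTHFD1L, the mitochondrial formate-releasing synthetase gene, was at 44.7 and 51.7 CPM and then at 41.2 and 42.8 CPM, also below, with a log2 fold change of -0.20 (SE 0.12). MTHFD2, which acts just before it in mitochondria, was at 86.3 and 88.7 CPM and then at 77.6 and 100 CPM, with the treated values on either side of the vehicle values. For the cytosolic serine synthesis route, PHGDH was at 163 and 155 CPM and then at 149 and 151 CPM, a log2 fold change of -0.09. PSAT1 was at 178 and 169 CPM and then at 166 and 195 CPM, and PSPH was at 32.6 and 39.2 CPM and then at 36.4 and 38.9 CPM, with overlapping groups for both. The serine hydroxymethyltransferase gene SHMT2 held to 128 and 126 CPM with vehicle and 131 and 127 CPM with LY500307 (log2 fold change 0.03, interval -0.19 to 0.24, with GC correction -0.05). Its cytosolic relative SHMT1 had a log2 fold change of 0.10 and overlapping groups.

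None of the 7 transporter genes met the DEG criteria, which called 4.62% of all genes tested, so few calls would be looked for among 7. SLC3A2 and SLC7A5 encode the heavy and light chains of a heterodimer that takes up large neutral amino acids in exchange for glutamine. SLC3A2 (GRCh37 chr11:62623476-62656352) was at 66.1 and 54.8 CPM with vehicle and at 61.5 and 97.2 CPM with LY500307, so its first treated value lay between the vehicle values and its second far above them. Its log2 fold change was 0.39 (SE 0.21, interval -0.08 to 0.87), and it was 0.02 from LY500307 replicate 1 alone and 0.69 from replicate 2 alone. SLC7A5 was at 105 and 101 CPM and then at 110 and 132 CPM, with both treated values above, and a log2 fold change of 0.23 (SE 0.12). A window of the glutamine transporter gene SLC1A5 held the element shown above. SLC1A5 was at 99.0 and 96.5 CPM and then at 107 and 121 CPM, also both above. Its log2 fold change was 0.22 (SE 0.10, interval -0.02 to 0.46) with an unadjusted p of 0.0661 in the edgeR test, and it was 0.10 with GC correction and 0.13 from LY500307 replicate 1 alone. SLC38A2, by far the most highly counted gene of the list, was at 612 and 616 CPM and then at 604 and 695 CPM, with 1 treated value on each side of the vehicle values. SLC7A11, which shares the heavy chain SLC3A2, was at 11.4 and 10.2 CPM and then at 9.08 and 9.90 CPM, a log2 fold change of -0.19 with an interval from -0.58 to 0.20. SLC7A1, a carrier of cationic amino acids, had a log2 fold change of 0.01 (interval -0.22 to 0.23, with GC correction -0.07), and the glycine transporter gene SLC6A9 had one of -0.16 with overlapping groups.

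**Figure D3:**
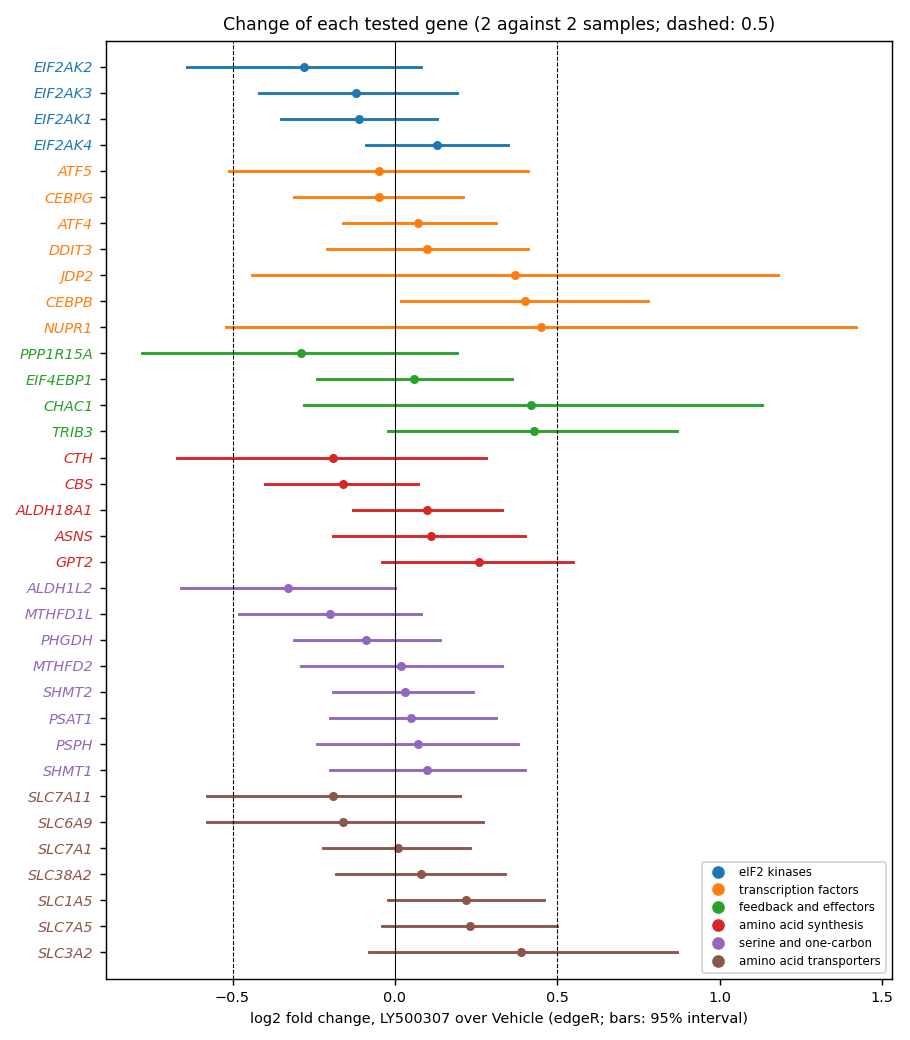
Log2 fold change of LY500307 over vehicle for the 35 genes tested, with 95% intervals from edgeR's quasi-likelihood fit, grouped by role and with dashed lines at -0.5 and 0.5. All points lie between -0.33 and 0.45, and the interval excludes 0 for CEBPB and ALDH1L2 alone.

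Counting which genes separate the groups gave no more than the whole table does. After TMM scaling, both LY500307 samples lay above both vehicle samples in 8 of the 35 genes and below them in 8, while these shares were 24.2% and 24.4% of all genes tested. The 16 genes without overlap made 45.7% of the list, beside 48.6% of all genes tested. The difference within the LY500307 pair was wider than that within the vehicle pair in 25 of 35 genes (71.4%), beside 66.6% of all genes. Its median was 0.18 in log2 for the listed genes, against 0.08 within the vehicle pair. For all genes tested these medians were 0.22 and 0.11. An absolute log2 ratio to the vehicle mean above 0.5 was seen for 2 genes in LY500307 replicate 1, JDP2 and NUPR1, both low in reads, and for 7 genes in replicate 2 (CEBPB, TRIB3, CHAC1, SLC3A2, PPP1R15A, EIF2AK2 and ALDH1L2). In all genes tested, 9.6% and 21.4% were past this ratio in replicate 1 and replicate 2.

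The calls depended on which treated sample was read. When replicate 1 of LY500307 was left out, 4 listed genes met the DEG criteria as higher (TRIB3, CHAC1, SLC3A2 and CEBPB) and 3 as lower (PPP1R15A, EIF2AK2 and ALDH1L2), while 7.45% and 6.31% of all genes tested did. In that fit 17 of the 35 genes had an adjusted p below 0.05, beside 34.6% of all genes, but a lone sample has no replicate and was assumed to vary like the vehicle pair. When replicate 2 was left out, no listed gene met the criteria, which 0.967% and 1.42% of all genes met as higher and as lower, and none had an adjusted p below 0.05, which 4.1% of all genes had. With all samples, DESeq2 called 1.98% of genes higher and 1.1% lower by the criteria and 0.0869% by adjusted p, and none of these was a listed gene. The same was so for edgeR with the replicate number as a block and GC correction, which called 1.94% higher, 2.2% lower and 0.504% by adjusted p.

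GC content moved with these ratios. Across the 35 genes, exonic GC content and the log2 ratio to vehicle had a Pearson r of 0.35 in LY500307 replicate 1 and 0.36 in replicate 2. Across 13786 tested genes with a known GC content, r was 0.16 and 0.29. By rank (Spearman rho) the values were 0.48 and 0.28 for the 35 genes and 0.26 and 0.33 for the 13786. In replicate 2, which set had the higher value thus depended on the measure. The genes share their libraries and are not independent replicates. CEBPB, at 66.2% GC, and TRIB3, at 61.5%, were among the GC-rich genes with high ratios. EIF2AK2, at 38.5%, and ALDH1L2, at 41.5%, were among the GC-poor genes with low ratios, while PPP1R15A, at 59.0%, was low despite its GC content. With each sample corrected for GC content, the log2 fold change of CEBPB was 0.23, that of TRIB3 0.30, that of SLC3A2 0.31, that of SLC7A5 0.11, that of ALDH1L2 -0.27 and that of EIF2AK2 -0.18. No listed gene met the DEG criteria after that correction.

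**Figure D4:**
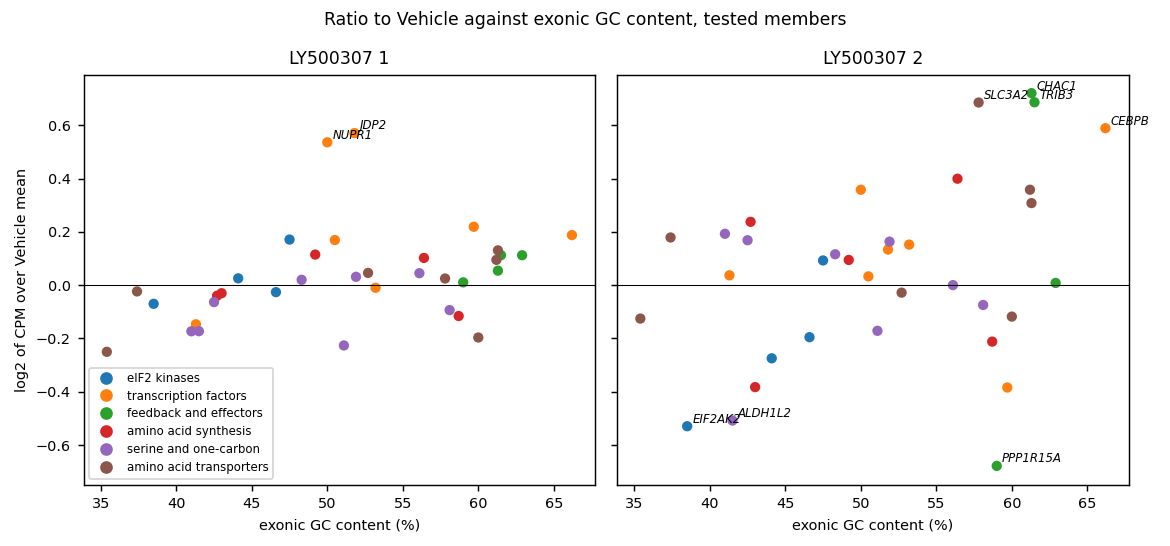
Log2 ratio of each LY500307 sample to the vehicle mean against exonic GC content in percent, 1 point for each of the 35 genes tested, coloured by role, with genes past 0.45 in size named. Points spread further from 0 in LY500307 replicate 2, and the relation with GC content (r = 0.35 and 0.36) is loose in both samples.

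The rest of the pathway was read from lists of 107 further genes, of which 102 were tested. Of these, 4 met the DEG criteria as higher and 1 as lower in LY500307, a share of 4.9% beside 4.62% of all genes tested, and their median log2 fold change was 0.04. All 5 had an adjusted p of 0.422 in the edgeR test. For STC2 and SESN2 the adjusted p was 0.0223 and 0.037 with DESeq2, and 0.0162 and 0.0473 with edgeR's replicate block and GC correction, whereas in the other fits that kept all samples it stayed above 0.05. Of 38 tested genes listed as other ATF4 and stress response targets, 3 were called higher (SESN2, HMOX1 and BBC3) and 1 was called lower (STC2). This is a share of 10.5%, beside 4.62% of all genes tested. The list was drawn up with earlier results of these data known, so its share is a description and not a test. The study, from these same samples, also names SESN2 among its higher genes of cell cycle arrest and apoptosis, and STC2 among its lower genes. It reports RT-qPCR of selected genes in SKOV3 and A2780 OCSCs. SESN2, a sensor of leucine that restrains mTORC1, was at 70.5 and 70.1 CPM with vehicle and at 95.6 and 127 CPM with LY500307, and its log2 fold change of 0.66 was 0.44 from LY500307 replicate 1 alone, below the 0.5 limit. HMOX1, the heme oxygenase gene, was at 34.7 and 33.9 CPM and then at 44.9 and 61.4 CPM (log2 fold change 0.63, SE 0.16, and 0.39 from replicate 1 alone). BBC3, which encodes the cell death factor PUMA, was at 44.4 and 43.4 CPM and then at 58.6 and 69.6 CPM. Its log2 fold change of 0.55 was 0.31 with GC correction, 0.47 with length correction and 0.41 from LY500307 replicate 1 alone, all below the limit. The glycoprotein hormone gene STC2 was at 50.8 and 56.6 CPM and then at 33.7 and 34.1 CPM, lower in both treated samples to nearly the same level.

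Among 24 tested folate genes outside the list, 1 met the criteria (4.17%, beside 4.62% of all genes tested). This was MTFMT, the mitochondrial methionyl-tRNA formyltransferase gene. It was at 11.2 and 12.1 CPM with vehicle and at 16.6 and 17.3 CPM with LY500307 (log2 fold change 0.54, SE 0.15, and 0.49 without vehicle replicate 1), and none of these genes met them in the lower direction. No gene met the criteria among the 16 tested genes of eIF2, its exchange factor eIF2B and their regulators, whose log2 fold changes ran from -0.21 to 0.27. The same was so for the 18 genes of the IRE1/XBP1 and ATF6 branches of endoplasmic reticulum stress, from -0.35 to 0.44. It also held for the 6 genes of glutathione synthesis and cystine use, from -0.14 to 0.25. At the share of all genes tested, lists this short can hold no called gene, so an empty count does not set them apart.

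**Figure D5:**
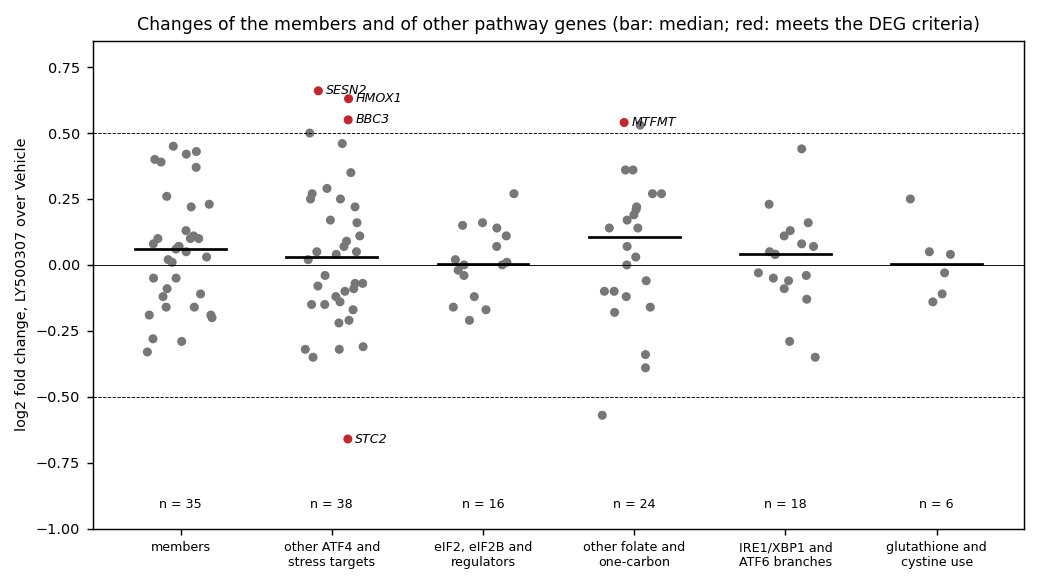
Log2 fold changes of LY500307 over vehicle for the 35 listed genes and for 5 further lists of the pathway, with 1 point per tested gene, a bar at each list's median and the genes that met the DEG criteria in red. The listed genes and 3 of the 5 further lists have no red point, and the 5 red points are SESN2, HMOX1, BBC3, STC2 and MTFMT.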

How the data were processed

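Raw HTSeq counts per gene symbol, not normalized, were deposited by the authors after alignment to hg19 by TopHat2 (version 2.0.8b in the submitters' processing notes). The strand setting of the counting is not given in the sources used here. HTSeq's lines that name no gene, of which the reads outside genes made 17.29% to 20.52% of all tallied reads, entered no library size or test. Groups and replicate numbers came from the sample titles. Differences were tested with edgeR 4.0.16 (R 4.3.3), using TMM scaling, filterByExpr (minimum count 10), the quasi-likelihood test and Benjamini-Hochberg adjustment over all genes tested. The SE of a log2 fold change is its size divided by the square root of F, and the 95% interval uses the fit's degrees of freedom. An exact permutation test of 2 against 2 samples cannot give a two-sided p below 0.333. DESeq2 1.42.0, the study's tool, other scalings, filters, a replicate block, loess corrections (span 0.3) for exonic GC content and length, and leaving out each sample were alternatives. The script was tested on simulated data.

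The rule that chose the genes used their known roles and no measured value, but the genes and lists were drawn up with earlier results of these data known. The genes named with all sample values were those with the smallest p, ATF4, DDIT3, the kinases and the highest of each role, with others of each role added. Further pathway genes are named where they met the DEG criteria. Exonic length, GC content and positions came from a GRCh37 annotation (GENCODE v44lift37), to which 91.8% of 23228 symbols were matched. Same-numbered samples had deviations from their group means that correlated at -0.07 over all genes tested.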

Additional observations from a re-analysis of the deposited data

How the results depend on the processing

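No listed gene met the DEG criteria in any of the 9 alternatives that kept all samples, and 0 met them without either vehicle sample or without LY500307 replicate 2. Without LY500307 replicate 1, 7 did. Leaving out each sample in turn, the listed genes called ran from 0 to 4 higher and from 0 to 3 lower, the further pathway genes from 1 to 8 higher and from 1 to 5 lower, and all genes from 140 to 1078 higher and from 205 to 913 lower. The number of genes with an adjusted p below 0.05 ran from 0 to 5011 in these fits, and was 16 with DESeq2, against 0 in the edgeR fit, where 1678 genes had an unadjusted p below 0.05. The split of calls was 400 higher and 269 lower, but 281 and 277 with the GC correction, 285 and 288 with the length correction, 484 and 210 with library totals alone, and 281 and 319 with the replicate block and GC correction.

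Whether the replicate numbers pair the samples is not given in the sources used here. Deviations of same-numbered samples correlated at -0.07, which with 2 samples per group cannot settle it. With the replicate numbers as a block, 1 gene had an adjusted p below 0.05 in the edgeR test. With the replicate block and GC correction 73 did, and no listed gene was among these. Further pathway genes called lower were 2, in place of 1, with the replicate block, the GC correction, the length correction, the replicate block and GC correction, and the filter of at least 1 count. The listed genes' median log2 fold change was 0.011 with the length correction.

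Direction held in every fit for 19 of the 35 genes. With the GC correction, and equally with the replicate block added to it, log2 fold changes reversed to -0.01 for ATF4, -0.05 for SHMT2, -0.07 for SLC7A1, 0.02 for CEBPG and -0.07 for EIF4EBP1. With the length correction they reversed to -0.02 for ATF4, -0.04 for DDIT3, -0.02 for SHMT2 and -0.09 for EIF4EBP1. With 1 sample left out, ranges that crossed 0 were -0.01 to 0.16 for ATF4, -0.38 to 0.22 for ATF5, -0.04 to 0.24 for ASNS, -0.07 to 0.17 for PSAT1, -0.06 to 0.21 for PSPH, -0.01 to 0.21 for SHMT1, -0.17 to 0.20 for MTHFD2, -0.02 to 0.04 for SLC7A1, -0.02 to 0.18 for SLC38A2, -0.38 to 0.11 for SLC6A9, -0.15 to 0.04 for CEBPG, -0.67 to 0.01 for PPP1R15A, -0.27 to 0.02 for EIF2AK3 and -0.09 to 0.23 for EIF4EBP1. The cause was not tested. At 21 to 50 reads in the vehicle samples, JDP2 and NUPR1 are limited by depth.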
